A study of Mus musculus with 3 samples.

Results

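The outer dense fibres and the fibrous sheath are structures of the sperm tail, and 9 genes that encode or accompany their proteins were examined in H3K4me3 ChIP-seq of adult mouse testis. The genes were Odf1, Odf2, Odf3 and Odf4 for the outer dense fibres and Akap3, Ropn1, Ropn1l, Fsip1 and Fsip2 for the fibrous sheath. They were listed by name, with no threshold on their signal but with earlier results of these data known, and are 9 of 21938 protein-coding genes in the GENCODE vM21 annotation. For each gene the narrow peaks centred within 1 kb of any annotated transcript start, the broad peak over a start, and the peaks elsewhere in the gene were taken from the deposited calls, and a gene without a peak stayed in.

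The series holds 2 H3K4me3 ChIP libraries and 1 input library of sheared chromatin without antibody, from whole testis of male (C57BL/6J x CAST/EiJ)F1 hybrids. All 3 libraries carry a Humanized/CAST Prdm9 genotype, in which the zinc-finger array of the C57BL/6J allele is replaced by the human one and the other allele comes from CAST/EiJ. The study's wider question was how local genetic variation affects the outcome of meiotic recombination, with H3K4me3 as a measure of PRDM9 binding. In these libraries no untreated or wild-type condition was compared. The labels describe the replicates as the testes of a single male, whereas the methods of the study describe testes of littermates, so the spread between replicates may be technical. With 2 ChIP libraries against 1 input library an exact permutation test could not give a p below 0.333, and the members are therefore described by fragments per library and by counts beside all protein-coding genes, with no test over them. Whole testis mixes cell types, so more marked cells and more mark per cell cannot be told apart.

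H3K4me3 is a histone mark laid down at active gene starts by the general promoter machinery, and in meiotic cells PRDM9 also lays it down at recombination hotspots. Outer dense fibres run along the microtubule axoneme of the sperm tail and stiffen it, and the fibrous sheath surrounds them in the principal piece, where it also anchors signalling and glycolytic enzymes. Many of these tail genes are transcribed in germ cells during and after meiosis.

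Sequence upstream of the starts differed widely in CpG content, and 4 members with high and low content are shown. The 250 bases before the RefSeq start (GRCm38.p6, the mm10 build) are given 5′ to 3′ on the gene's strand, with each CG dinucleotide in capitals. Odf2 lies at chr2:29889470-29889719 (plus strand, 22 CG dinucleotides) and Fsip2 at chr2:82943384-82943633 (plus strand, 11). For Odf2 this is the most upstream and least CpG-rich of its 4 RefSeq windows, which hold up to 35 CG dinucleotides before the start. Odf4 lies at chr11:68927082-68927331 (minus strand, 2) and Akap3 at chr6:126852848-126853097 (plus strand, 0).
Odf2: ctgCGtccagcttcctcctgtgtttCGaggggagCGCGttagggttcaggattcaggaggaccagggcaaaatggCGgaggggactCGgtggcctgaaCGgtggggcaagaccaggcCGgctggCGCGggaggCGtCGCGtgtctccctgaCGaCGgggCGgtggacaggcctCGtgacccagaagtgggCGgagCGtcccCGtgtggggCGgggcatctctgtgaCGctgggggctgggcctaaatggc
Fsip2: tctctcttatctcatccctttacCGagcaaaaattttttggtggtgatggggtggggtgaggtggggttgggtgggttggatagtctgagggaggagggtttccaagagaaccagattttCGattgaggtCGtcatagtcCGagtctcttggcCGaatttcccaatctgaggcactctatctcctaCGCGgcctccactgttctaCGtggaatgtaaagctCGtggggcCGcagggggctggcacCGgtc
Odf4: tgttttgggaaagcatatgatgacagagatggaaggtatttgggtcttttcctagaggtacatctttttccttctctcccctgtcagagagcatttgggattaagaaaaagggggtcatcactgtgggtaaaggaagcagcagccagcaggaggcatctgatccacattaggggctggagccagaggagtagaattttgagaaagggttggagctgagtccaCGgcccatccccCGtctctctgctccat
Akap3: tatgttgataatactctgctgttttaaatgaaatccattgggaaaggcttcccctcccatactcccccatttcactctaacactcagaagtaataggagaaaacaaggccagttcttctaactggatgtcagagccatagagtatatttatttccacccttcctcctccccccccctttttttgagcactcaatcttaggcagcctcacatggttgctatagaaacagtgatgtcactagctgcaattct

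Of the 9 members, 8 had a narrow peak centred within 1 kb of a start, and the start of all 9 lay inside a broad peak. Over all protein-coding genes, 76.8% had a narrow start peak and 75.8% had a start inside a broad peak. PRDM9-independent regions are those that the authors list where other mice, in pairs carrying different Prdm9 alleles, shared an H3K4me3 peak. The strongest start peak of 8 of the 8 members with one lay in such a region, against 91.8% of genes with a start peak. The fragments of both ChIP replicates exceeded those of the input at all 8, which held for 99.1% of such genes. These shares were near the background. Enrichment, the authors' estimate of ChIP signal above the local background in units of that background, with 0 for no signal above it, had a median of 39.4 over the 8 members (interquartile range 25.7 to 47.6), against 37.6 over all protein-coding genes with a start peak (14.7 to 65.3). The broad peaks were wider than at most genes. Their median width was 9800 bp over the 9 members (7500 to 10500 bp), against 3400 bp over all protein-coding genes with one (2200 to 5300 bp).

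**Figure D1:**
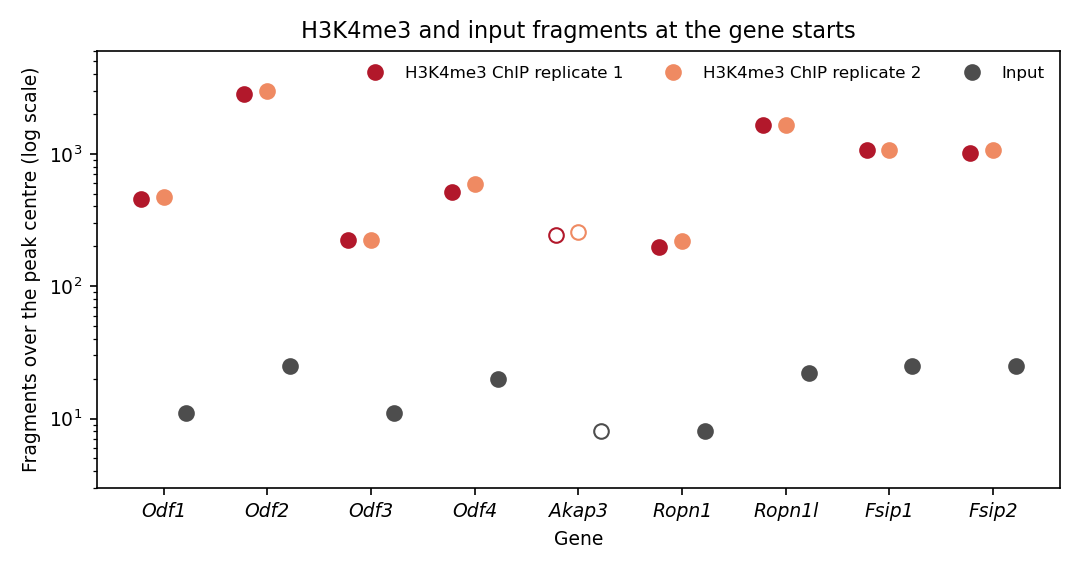
Fragments over the centre of the strongest start peak of each gene (vertical axis, log scale) in H3K4me3 ChIP replicate 1, ChIP replicate 2 and the input, from left to right within a gene. Open circles mark Akap3, whose nearest peak lay 1417 bp from a start. The ChIP points of every gene sit above its input point, from 197 and 220 over 8 fragments at Ropn1 to 2848 and 2998 over 25 at Odf2.

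Among the outer dense fibre genes, Odf2, a coiled-coil protein of the fibres that is also found at centrosomes, carried the strongest signal. Its gene spans 42526 bp (chr2:29889221-29931746, plus strand) with 25 annotated transcripts that begin at 24 positions. The peak centre at 29890103, in an untranslated exon and 20 bp inside the transcript Odf2-220, held 2848 and 2998 fragments in the ChIP replicates, against 25 in the input. The ratio to the input was 114 in replicate 1 (95% interval 77.0 to 176) and 120 in replicate 2 (81.1 to 186). Its enrichment of 110.0 stood at the 96.5th percentile of the strongest start peaks of all protein-coding genes with one. These intervals are exact binomial ones on unscaled fragments and cover counting error only.

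Odf2 also had the widest broad peak of the 9 genes. It measured 22300 bp, at the 99.3rd percentile of protein-coding genes with a broad peak over a start. It reached 2920 bp upstream and 19379 bp downstream of the outermost start. A further start peak lay 274 bp inside the internal transcript Odf2-223, with 185 and 187 fragments in the ChIP replicates against 17 in the input and an enrichment of 10.2. Of the 24 starts, 21 lay inside the broad peak, and the other 3, all of retained-intron transcripts, lay further down the gene and had neither a narrow nor a broad peak. Near the downstream end, a called peak at 29908463 held 21 and 16 ChIP fragments and 25 input fragments, with an enrichment of 0.564. Fragments are not scaled between libraries and enrichment counts from 0, so a raw ChIP count below the input does not by itself place this weak peak below background.

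Odf1, which encodes a major cysteine-rich protein of the fibres, had its start peak 446 bp inside the gene (chr15:38219203-38226735, plus strand). The centre held 459 and 472 fragments in the ChIP replicates, against 11 in the input. The ratio was 41.7 in replicate 1 (23.1 to 84.2) and 42.9 in replicate 2 (23.8 to 86.5), and the enrichment was 39.7. The broad peak measured 9800 bp and covered the whole 7533 bp gene. A second centre near the end of the gene, at 38226415, held 94 and 127 ChIP fragments against 10 in the input.

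Odf4, a membrane protein of the developing sperm tail, had its peak centre inside the gene (chr11:68921835-68927081, minus strand), in an intron. It lay 8 bp upstream of the start of Odf4-204, a transcript annotated for nonsense-mediated decay and the innermost of 4 starts. The starts of the protein-coding transcripts lay upstream of the centre. This centre held 518 and 596 fragments in the ChIP replicates, against 20 in the input, with an enrichment of 26.1. The 10600 bp broad peak covered the whole 5247 bp gene and carried 3 weaker centres. The one inside the gene held 77 and 86 ChIP fragments against 10 in the input, and the upstream ones held 65 and 84 against 10, and 54 and 41 against 9.

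Odf3, a sperm tail protein, had the lowest enrichment of the 8 start peaks, 19.0. Its centre 491 bp inside a transcript (gene chr7:140847805-140851018, plus strand) held 223 and 224 fragments in the ChIP replicates, against 11 in the input. The 7500 bp broad peak covered the whole 3214 bp gene. It was shared, since the starts of the protein-coding gene Scgb1c1 and of the antisense transcript C330022C24Rik lay 2258 and 2116 bp upstream under the same peak. The centre nearest to them held 132 and 128 ChIP fragments against 11 in the input, fewer than at Odf3.

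Of the fibrous sheath genes, Ropn1l, which encodes a ropporin-like protein that binds A-kinase anchoring proteins, had the highest enrichment, 70.7. Its gene (chr15:31441211-31453737, minus strand) has a single annotated start, with the peak centre 265 bp inside it. The centre held 1650 and 1662 fragments in the ChIP replicates, against 22 in the input, and the ratio was 75.0 (49.4 to 120) and 75.5 (49.7 to 121). The long non-coding RNA Gm49208 begins 1 bp away on the other strand, and how the signal divides between the pair was not tested. The broad peak of 9000 bp covered 54.6% of the gene.

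Ropn1, the ropporin that pairs with the same anchoring proteins, was among the weakest. Its strongest start peak, 230 bp inside Ropn1-201 (gene chr16:34649921-34678618, plus strand), held 197 and 220 fragments in the ChIP replicates, against 8 in the input, with an enrichment of 24.4. A second start peak 99 bp inside Ropn1-202 held 222 and 257 ChIP fragments against 11 in the input, with an enrichment of 20.4. Another centre under the same broad peak of 10500 bp held 162 and 186 against 10. The start was thus marked over a wide stretch with no single high centre.

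Fsip1 and Fsip2, named as fibrous sheath interacting proteins, had start peaks of almost equal height. At Fsip1 (chr2:118130424-118256966, minus strand) the centre 176 bp inside the gene held 1064 and 1059 fragments in the ChIP replicates, against 25 in the input, with an enrichment of 39.8. At Fsip2 (chr2:82943634-83008937, plus strand) the centre 127 bp inside held 1016 and 1066 fragments, against 25 in the input, with an enrichment of 39.1. Their broad peaks, of 5200 and 5800 bp, were the narrowest of the 9, and covered only 2.82% and 5.92% of these long genes. The short transcript Fsip1-203 had a separate weak peak 617 bp upstream of its start, with 4 and 7 ChIP fragments, against none in the input, and that peak lay outside the PRDM9-independent regions. The internal starts Fsip2-202 and Fsip2-201 lay outside any broad peak and had no narrow peak within 1 kb.

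Akap3, an A-kinase anchoring protein and a main structural protein of the sheath, was the gene with no narrow peak within 1 kb of any of its 3 starts. The nearest centre lay just outside that limit, 1417 bp inside the transcript Akap3-202 (gene chr6:126853098-126874308, plus strand), in an intron. It held 242 and 258 fragments in the ChIP replicates, against 8 in the input, with an enrichment of 29.3. That was above the enrichment at Odf4, Ropn1 and Odf3. The broad peak of 10400 bp lay over the start of Akap3 and also over that of Ndufa9, a respiratory complex gene on the other strand that begins 3962 bp away. The higher centre under it stood at Ndufa9 and held 1444 and 1712 ChIP fragments against 17 in the input, with an enrichment of 87.3. Part of the width given for Akap3 may therefore be the neighbour's, which was not tested.

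Ranked by enrichment at the start, the genes stood in the order Odf2, Ropn1l, Fsip1, Odf1, Fsip2, Odf4, Ropn1 and Odf3. Fsip1, Odf1 and Fsip2 lay at 39.8, 39.7 and 39.1. Their ratios to the input were 42.6, 41.7 and 40.6 in replicate 1 and 42.4, 42.9 and 42.6 in replicate 2, so that the order changed between replicates. The 95% intervals of the ratio to the input overlapped between each pair of neighbours in this order. They did not overlap between Odf2 and Odf3, whose ratio was 20.3 in replicate 1 (11.1 to 41.2) and 20.4 in replicate 2 (11.2 to 41.4). The 4 outer dense fibre genes spanned 19.0 to 110.0 with a median of 32.9, and the 4 fibrous sheath genes with a start peak 24.4 to 70.7 with a median of 39.5. The groups overlapped over most of their ranges.

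**Figure D2:**
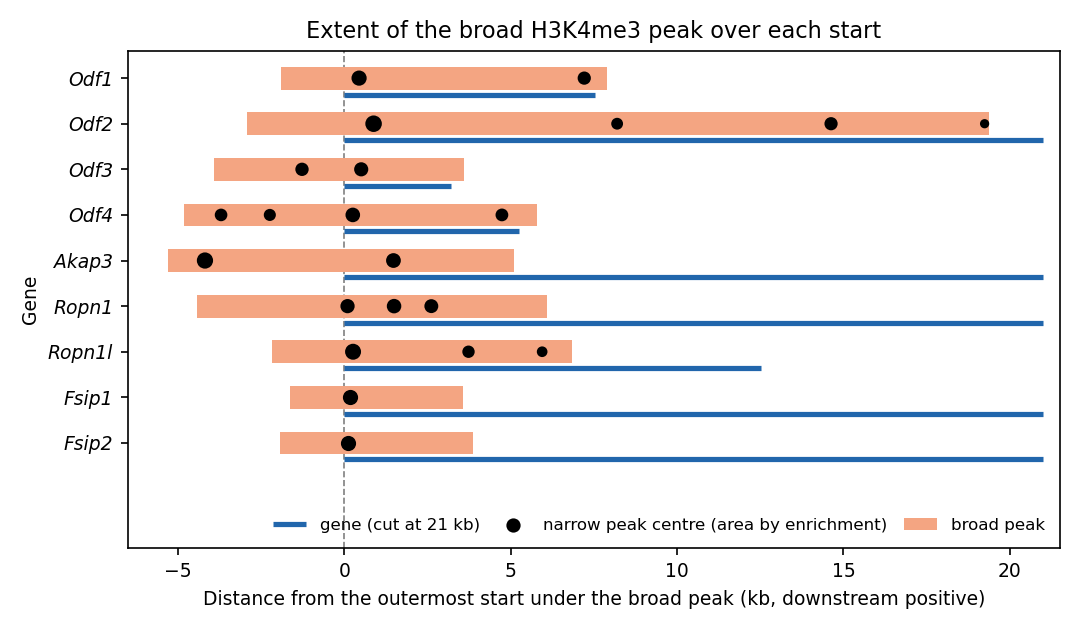
Broad peak (orange bar) around the start of each gene, in kb from the outermost start under it with downstream to the right. The blue line is the gene up to 21 kb and the dots are narrow peak centres, with area growing with enrichment. Odf2 stands out at 22.3 kb, 19.4 kb of it downstream, and the bars of Odf1, Odf3 and Odf4 cover the whole gene.

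The 9 broad peaks ranged between 5200 and 22300 bp. At least as wide as the narrowest of them were 19.9% of all protein-coding genes, a limit set by the members and given as a description. The peak covered the entire gene at 3 members, Odf1, Odf3 and Odf4, against 4.77% of all protein-coding genes, and these 3 were also the shortest of the 9. It reached further downstream than upstream of the outermost start at 7 of the 9 members, against 75.0% of all genes with a broad peak over a start. The exceptions were Odf3 and Akap3, whose peaks also cover a neighbour's start upstream. The median reach was 5780 bp downstream and 2920 bp upstream over the members, against 1960 and 1147 bp over all such genes, so both sides were longer. Of the 45 distinct starts of the members, 39 lay inside a broad peak and 35 had a narrow peak within 1 kb.

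**Figure D3:**
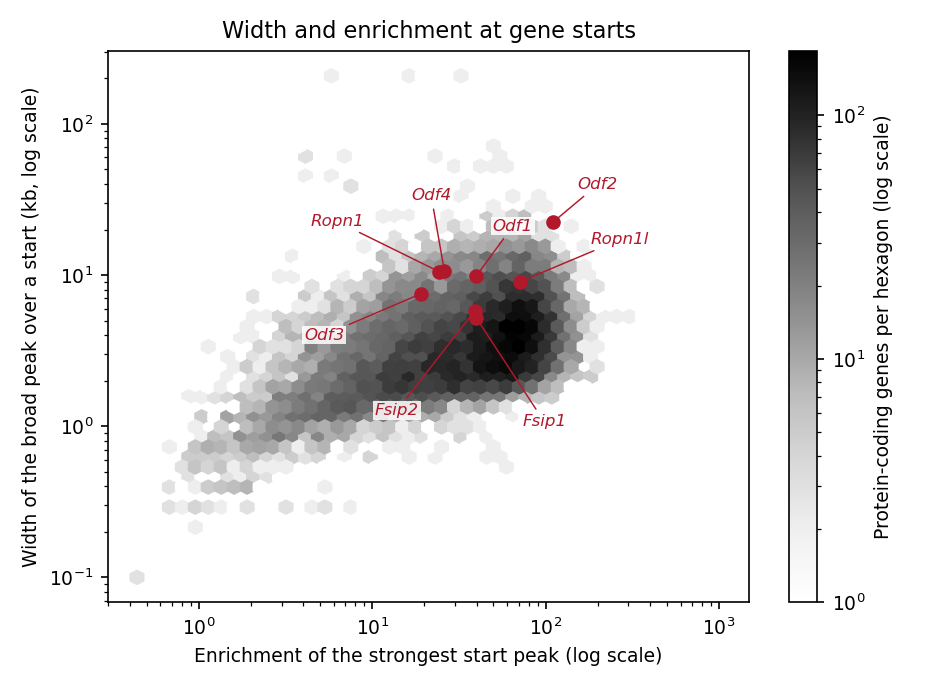
Width of the broad peak over a start (vertical axis, kb, log scale) against enrichment of the strongest start peak (horizontal axis, log scale). Grey hexagons count protein-coding genes, darker for more genes, and red dots are the 8 members with a start peak. The members lie within the enrichment range of other genes and in the upper part of the widths, with Odf2 at 22.3 kb and 110.0.

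CpG content set the members apart from each other. RefSeq start windows of 300 bases (250 before and 50 after the start) were matched for 7 members. The ratio of observed to expected CG dinucleotides was 1.04 at Odf2, as the highest of its 4 windows, 0.874 at Ropn1l and 0.646 at Fsip2. It was 0.161 at Odf4, 0.145 at Ropn1, 0.0871 at Odf3 and 0 at Akap3. The median over all 32851 windows was 0.384. Members split at 0.6, a conventional limit for CpG islands applied after the values were seen, into 3 CpG-rich genes with enrichments of 39.1 to 110.0 and 4 CpG-poor ones, of which 3 had a start peak, with enrichments of 19.0 to 26.1. By their highest window, 47.5% of the 16539 protein-coding genes with a window lay under 0.6, so both classes are common. Of the genes under 0.6, 54.8% had a start peak, with a median enrichment of 14.7. At or above 0.6 these values were 99.1% and 53.2.

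Width did not follow the same split. The 4 CpG-poor members had broad peaks of 7500, 10400, 10500 and 10600 bp, against 5800, 9000 and 22300 bp for the 3 CpG-rich ones. In all protein-coding genes the median width was 2700 bp under 0.6 (interquartile range 1600 to 4900 bp) and 3700 bp at or above it (2500 to 5500 bp). Each CpG-poor member was thus wider than the upper quartile of its class. Odf3 and Akap3 share their broad peak with another gene's start, while Odf4 and Ropn1 do not.

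**Figure D4:**
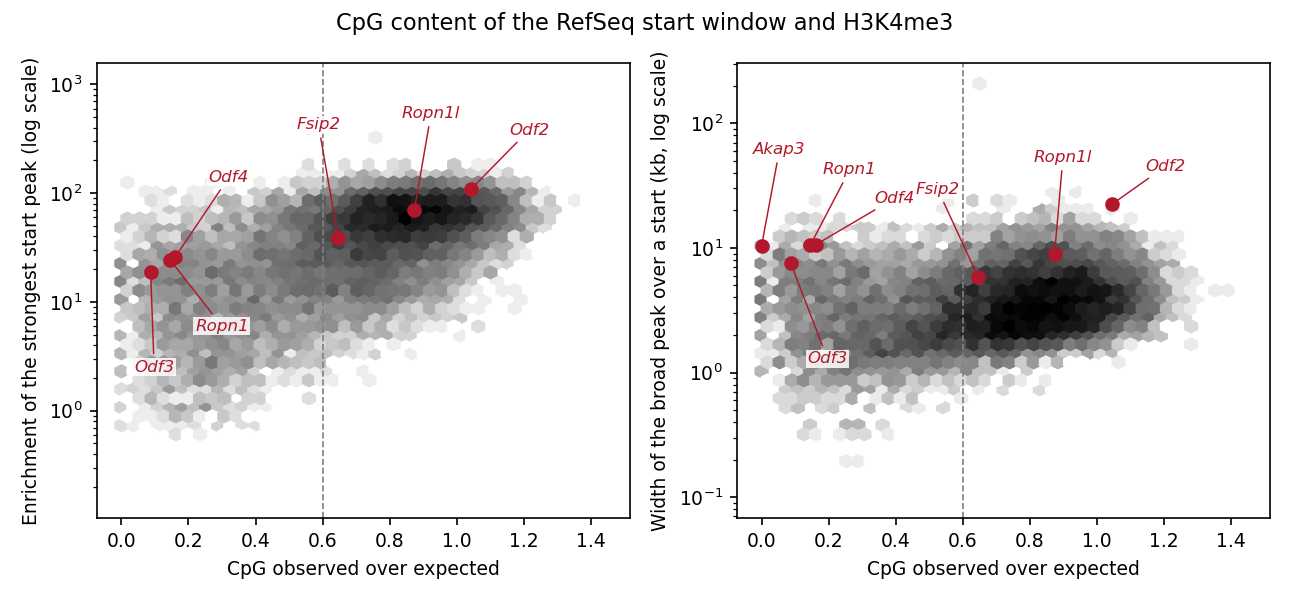
CpG observed over expected in the RefSeq start window (horizontal axis) against enrichment of the strongest start peak (left, log scale) and broad peak width in kb (right, log scale). Hexagons are protein-coding genes, darker for more genes, red dots are members and the dashed line marks 0.6. Enrichment of the members lies between 19.0 and 26.1 left of the line and between 39.1 and 110.0 right of it, whereas widths of 7.5 to 10.6 kb occur left of it.

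Short motifs were searched on both strands of the start windows, as a description of letters only. A member counted if any of its windows held the motif, whereas the shares are of single windows. GGGCGG, the core bound by Sp1, was found at Odf2 and Ropn1l and in 35.7% of all windows. CCAAT was found at Odf2, Akap3 and Fsip2 and in 37.4%. TGACG, the core of the cAMP response element, was found at Odf2 and Fsip2 and in 20.8%, and the full element TGACGTCA, which contains it, in none of the 7 members and in 1.79% of all windows. TATAAA was in none of the 7 and in 13.6% of all. GGCAGTT, which resembles the site of the meiotic regulator A-MYB, was found at Odf4 alone among the 7, and in 4.12% of all windows. CCTCCCT, a short core found in human hotspots, was found at Fsip2 alone and in 15.4%. Counted by window, GGGCGG was in 4 of the 10 windows of the members, CCAAT in 5, TGACG in 3, and GGCAGTT and CCTCCCT in 1 each. Of these 10 windows, 4 belong to Odf2 and overlap their neighbours, so the same bases can be counted more than once.

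Away from the starts, the 9 genes held 15 further narrow peaks over 312.8 kb, or 4.80 per 100 kb, against 3.59 per 100 kb in all protein-coding genes. Of these, 8 lay outside the PRDM9-independent regions, which is 2.56 per 100 kb against 2.60 in all protein-coding genes. They fell in 6 of the 9 genes, against 42.4% of all protein-coding genes. The density was near the background. Within these 8 peaks, 6 were also clear of any PRDM9-independent broad peak, and most were weak. Akap3 held one with 6 and 4 ChIP fragments against 1 in the input, Ropn1l had one with 5 and 5 against 1, and Fsip1 one with 10 and 6 against 2. A further one in Fsip1 held 4 and 12 ChIP fragments against 6 in the input.

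The strongest of the 8, whose sequence is shown for that reason, was an intronic peak of Ropn1 at 34671953. It held 43 and 61 fragments in the ChIP replicates, against 3 in the input, a ratio of 14.3 in replicate 1 (4.59 to 72.2) and 20.3 in replicate 2 (6.64 to 101). Its enrichment of 16.2 lay below the 24.4 of the start of the same gene, but at the 96.9th percentile of the 62533 narrow peaks outside PRDM9-independent regions, whose median was 2.79. It had a broad peak of its own of 1600 bp, separate from that over the start. The 201 bases around the centre (chr16:34671853-34672053, plus strand of the reference genome, centre base in capitals) had a GC content of 39.3% and no match to CCTCCCT on either strand, a short core of human PRDM9 hotspots that 15.4% of start windows hold.
Ropn1 intron: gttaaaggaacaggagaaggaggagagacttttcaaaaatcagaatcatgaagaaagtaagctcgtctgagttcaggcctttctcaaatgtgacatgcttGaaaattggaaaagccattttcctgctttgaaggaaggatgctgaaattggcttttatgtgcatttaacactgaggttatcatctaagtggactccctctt

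Another Ropn1 peak outside those regions, at 34667470, held 29 and 29 ChIP fragments against 7 in the input, also with a broad peak of 1600 bp. The start of the short transcript Ropn1-203 lay 1153 bp from it under that broad peak. At 34657669 another body peak held 39 and 40 ChIP fragments against 11 in the input and lay inside a PRDM9-independent region. Ropn1 thus had 4 body peaks in all, more than any other member. Fsip2, 65304 bp long, and Odf3 had none.

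Other genes of the same structures were compared by their counts and medians. Of 10 further fibrous sheath genes, 9 had a start peak, with a median enrichment of 28.4 between 12.5 at Aldoart1 and 65.5 at Slc25a31, and a median width of 6250 bp. Their widths ran up to 15300 bp at Txndc2 and 18300 bp at Gapdhs, and 9 of the 10 were at least as wide as the narrowest member. Spa17, at 10700 bp, was also wider than every member but Odf2. Fscb had no start peak but lay under a broad peak of 6500 bp. Akap4, the main partner of Akap3 in the sheath, held 98 and 112 fragments in the ChIP replicates against 7 in the input, with an enrichment of 14.0 and a width of 8300 bp. Of 9 further genes related to outer dense fibre proteins or reported as their partners, 8 had a start peak, with a median of 44.5 between 18.1 at Odf3b and 109.9 at Oaz3, and a median width of 7400 bp. Odf3l2 had neither a narrow nor a broad peak at a start. The axoneme list had start peaks at 20 of 20 genes, with a median of 47.0 between 21.8 at Ccdc40 and 107 at Cfap69, and a median width of 6600 bp. These differences between lists were not tested.

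The late spermatid chromatin genes had wider broad peaks than any of the 9 members at lower enrichment. Of the 5, 4 had a start peak, with enrichments between 9.43 at Tnp1 and 16.5 at Prm2 and Prm3, which share the same centre, all below the 19.0 of Odf3. Prm1, Prm2, Prm3 and Tnp2 shared a single broad peak of 23900 bp, and that of Tnp1 measured 22800 bp. Of 12 genes of other differentiated tissues, only Cd3e had a start peak, with 47 and 54 ChIP fragments against 7 in the input and a width of 2400 bp.

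**Figure D5:**
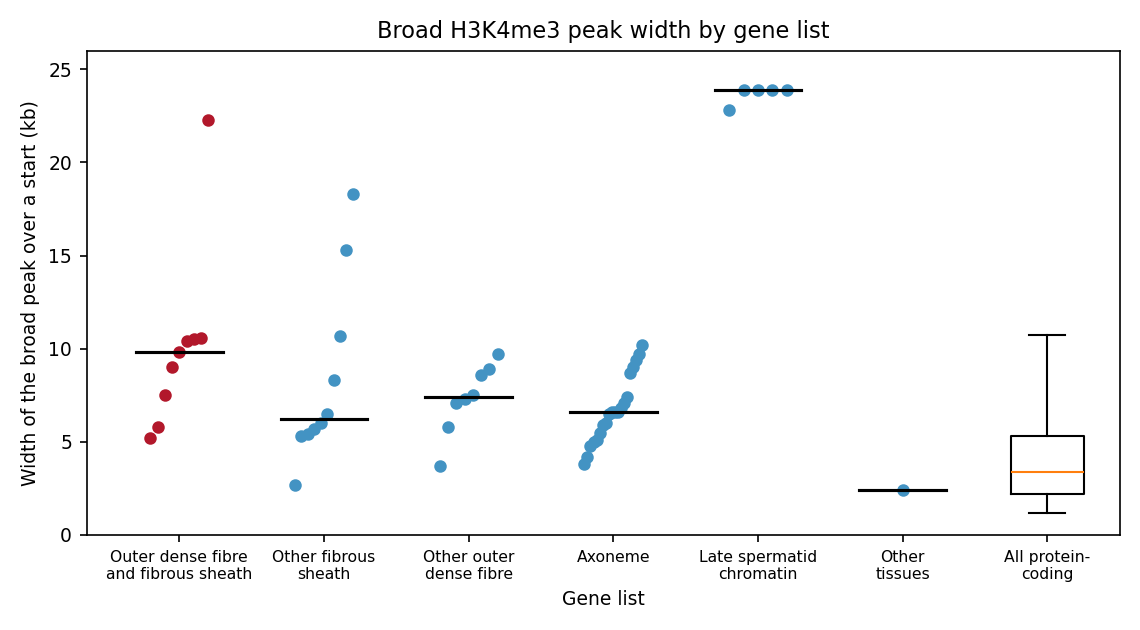
Width of the broad peak over a start (vertical axis, kb) for the 9 genes (red) and 5 comparison lists (blue), with a black line at each median. The box at the right gives the median and quartiles of all protein-coding genes, with whiskers at the 5th and 95th percentiles. Medians are 9.8 kb for the 9 genes, between 6.25 and 7.4 kb for the other tail lists and 3.4 kb for all protein-coding genes.

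The libraries held 17621116 and 19094837 fragments over all 101978 narrow centres in the ChIP replicates against 1250138 in the input. Fragments were not scaled to library size. Replicate 2 exceeded replicate 1 at 7 of the 8 start peaks of the members and was lower at Fsip1. After scaling to equal totals, replicate 2 over replicate 1 lay between -0.12 and 0.09 on the log2 scale at the members. The central 90% of the strongest start peaks of all protein-coding genes ran from -0.22 to 0.36. Germ cell markers had start peaks at 6 of 6 genes, with enrichments of 14.6 to 113, from Prm1 to Sycp3. Start peaks were also called at somatic markers, at 4 of 5 Sertoli genes (11.0 to 18.2, Amh without a peak), 4 of 4 Leydig genes (4.36 to 15.0), 2 of 3 blood and macrophage genes (1.03 and 3.01, Ptprc without a peak) and 2 of 2 endothelial genes (3.95 and 6.22). The last 2 groups rest on few fragments that differ between replicates. Cd68 held 6 and 36 ChIP fragments against 17 in the input, so replicate 1 lay below the input. Adgre1 held 9 and 11 against 3, Pecam1 7 and 19 against 3, and Cdh5 17 and 37 against 4. Wide broad peaks were not particular to tail genes. The germ cell markers had a median width of 9300 bp (interquartile range 7100 to 12100 bp), with 12700 bp at Ddx4. Among somatic markers the widest peaks measured 12600 bp at Wt1, 10100 bp at Insl3 and 9000 bp at Gata4. Most somatic markers had narrower ones. The median width was 7000 bp over the Sertoli genes, 3800 bp over the Leydig genes and 3450 bp over the endothelial genes, and the peak at Cd68 measured 600 bp. The part of these cell types in the members' signal was not tested.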

How the data were processed

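H3K4me3 ChIP (2 libraries) and input (1 library) of hybrid mouse testis were analysed from the deposited peak tables. The authors mapped read pairs to mm10 (the submitters' processing notes name BWA, SAMtools and bedtools), removed duplicates, and called peaks jointly on both replicates against the input by a likelihood ratio test. The deposited tables give fragment counts per library at each narrow peak centre, an enrichment ratio over the local background (0 for none), and a p-value, the highest being 9.59e-07. Broad peaks, the authors' merged 100 bp bins, have 98334 rows. They also deposited 36243 PRDM9-independent regions, and a centre counted as independent if it overlapped one by 1 bp. The authors' peak calls use both replicates, so no replicate has calls of its own.

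Starts came from GENCODE vM21 on mm10, and CpG content and motifs from RefSeq windows. For each gene the strongest peak within 1000 bp of a start and the widest broad peak over a start were kept. Intervals are Clopper-Pearson intervals (95%) on ChIP over input fragments. The members and gene lists were chosen with earlier results of these data known. Named genes were all members, genes starting within 1 kb of a member start, and the highest, the lowest and up to 3 without a start peak of each list. Akap4, Spa17, Gapdhs, Txndc2, Prm1, Prm3, Wt1, Gata4, Ddx4, Ndufa9, Scgb1c1 and C330022C24Rik were added after their values were seen. Alternatives changed the distance, the transcripts used, the p limit, the replicates and the broad peak rule. Python 3.11.15 with numpy 2.4.6, pandas 2.3.3, scipy 1.17.1 and matplotlib 3.10.9 was used. 1 blank row of the narrow table was skipped.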

Additional observations from a re-analysis of the deposited data

How the results depend on the processing

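The number of members with a start peak was 8 under the other distance, transcript sets and p limit tried, and 9 at a distance of 2 kb, which added Akap3. Their median enrichment, 39.4, lay between 39.1 and 39.4 under the other distances, transcript sets and p limit, and with the peak nearest to a start. Enrichment was estimated on both replicates jointly, so no value exists for a single replicate. The ratio of unscaled ChIP to input fragments, with 1 added to each, was used in its place. This is another measure, which depends on library depth. The median ratio was 39.5 for the mean of both replicates, 40.1 without replicate 1 and 38.7 without replicate 2. The median width, 9800 bp, became 9000 bp with the narrowest broad peak over any start. The 15 gene body peaks became 8 when only those outside PRDM9-independent regions were counted, by construction, and 10 at p below 1e-10. Peaks were called jointly, so leaving out a replicate could change neither the calls of start and broad peaks nor PRDM9 independence. Asking only that the remaining replicate exceed the input at a start peak gave 8 members either way. That outcome was fixed, since both replicates exceeded the unscaled input at all 8, so it is no further check. No paired analysis was possible because the results come from no test and the input has no matching replicate number. Counting error is large at body peaks with few fragments.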
